A study of Mus musculus with 98 samples.

Results

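Albumin and 4 apolipoproteins, APOA1, APOB, APOE and APOC3, were followed in livers that held mouse and human hepatocytes side by side, and in control livers of mouse cells. The set is 10 rows of the liver count table, chosen by name: the mouse genes Alb, Apoa1, Apob, Apoe and Apoc3, and the human rows ENSG00000163631 (ALB), ENSG00000118137 (APOA1), ENSG00000084674 (APOB), ENSG00000130203 (APOE) and ENSG00000110245 (APOC3). The table holds 37418 rows in all, 19689 of mouse and 17729 of human genes, and all 10 members passed the filter on low counts.

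The mice were FRGN, an immunodeficient strain on a non-obese diabetic background that lacks Fah, Rag2 and Il2rg, and both arms carried these deletions. Fah encodes the last enzyme of tyrosine breakdown, and the drug nitisinone protects hepatocytes that lack it. Withdrawing the drug in cycles lets host hepatocytes die and favours the transplanted cells. Male mice aged 10 weeks had received human hepatocytes (Hu arm) or murine hepatocytes (Mu arm, the control), and the host's other liver cells stayed in place in both arms. Nitisinone, sulfamethoxazole with trimethoprim, and dextrose in the water were common to both arms. Per the labels, Hu mice were selected for a human repopulation above 70%, and the labels do not say how many donors gave the cells. Livers were collected at ZT 2, 6, 10, 14, 18 and 22 (zeitgeber time, in hours from lights on), with 2 or 3 Hu and 2 Mu livers per time, 15 Hu and 12 Mu in all. The labels number the livers and name no animals, so p-values measure the spread between these libraries.

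Albumin, the main protein of plasma, and most apolipoproteins are made by hepatocytes and secreted. APOB is the structural protein of very low and low density lipoproteins, APOA1 that of high density lipoproteins, APOC3 slows the clearance of triglyceride-rich particles, and APOE is the ligand through which remnants are taken up. APOE is also made by macrophages, astrocytes and other cells, and human albumin in the blood of such chimeric mice is a usual measure of repopulation. The albumin promoter gave its name to Dbp, the D-site binding protein, a clock-controlled transcription factor of the liver.

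In the mouse annotation (GENCODE vM21, GRCm38, one of the builds in the submitters' processing notes), Alb lies at chr5:90460897-90476602 and Apob at chr12:7977648-8016835, both on the plus strand. Apoe lies on the minus strand at chr7:19696109-19699188. Apoa1 (chr9:46228580-46230466, plus strand) and Apoc3 (chr9:46232933-46235636, minus strand) are close neighbours. No human annotation was used, so the human rows are given by identifier. The 250 bases before the RefSeq start of Alb (chr5:90460620-90460869, GRCm38.p6, plus strand) are shown because they hold the D-box letters marked below. The rhythm of the transcript is tested further on. Capitals mark exact matches on either strand to the D-box TTATGTAA, the CCAAT box CCAAT and the HNF1 half-site GTTAAT.
Alb: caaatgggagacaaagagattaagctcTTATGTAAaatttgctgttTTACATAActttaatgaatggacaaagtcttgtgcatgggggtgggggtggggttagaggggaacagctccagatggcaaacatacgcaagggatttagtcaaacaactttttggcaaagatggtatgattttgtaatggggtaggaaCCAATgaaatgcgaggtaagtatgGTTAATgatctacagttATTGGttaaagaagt
The D-box letters occurred 2 times in this window, CCAAT 2 times, and GTTAAT 1 time. Over 32851 RefSeq promoter windows of the same length, 0.819% held the D-box letters, 33.8% CCAAT and 6.43% GTTAAT. The window of Alb did not hold TATAAA, which 12.4% of windows held. The windows of the other members are not described here. A match is a description of the letters and not of binding, and the matches were not compared with the D-site after which Dbp is named.

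Total counts ranged from 97081032 to 118269405 in Mu livers and from 22951832 to 122222058 in Hu livers, of which 7699340 to 87887100 lay in mouse rows. Human rows took 15.9% to 93.1% of the counts of a Hu liver, and 0.00592% to 0.0204% in Mu livers. Mouse Fah averaged 547 ± 74.0 CPM (counts per 1000000 counts of the same species in that liver; SD, n = 12) in Mu and 21.3 ± 7.03 (SD, n = 15) in Hu livers. Of the mouse hepatocyte markers other than the members, 7 of 8 were lower in Hu livers, while 6 of 6 markers of stellate cells, 6 of 6 of bile duct cells, 6 of 6 of sinusoidal endothelium and 3 of 6 of Kupffer cells were higher. These are counts with TMM scaling over mouse rows, where 37.0% of all mouse genes tested were lower and 42.5% higher. With the library size over both species and no TMM, 60.9% of all mouse genes tested were lower and 16.9% higher. Under that scaling 8 of 8 hepatocyte markers were lower, and 4 of 6 stellate and 6 of 6 bile duct markers higher. There 1 endothelial marker was higher and 1 lower, and 0 Kupffer markers were higher and 3 lower. Summed per list, hepatocyte markers ranged from 15011 to 18922 CPM in Mu and from 1165 to 12810 CPM in Hu livers, stellate markers from 269 to 482 and from 526 to 7699 CPM, bile duct markers from 59.3 to 141 and from 245 to 1576 CPM, endothelial markers from 243 to 292 and from 311 to 3114 CPM, and Kupffer markers from 398 to 691 and from 569 to 4193 CPM. No marker was at 0 in every liver of an arm. The part of this change of cell types in the results below was not tested, and in bulk tissue fewer cells of a type and less RNA per cell cannot be told apart. Mouse rows of Mu livers also include transplanted murine hepatocytes, and those of Hu livers do not. A difference between transplanted and host hepatocytes therefore cannot be told apart from one between the arms.

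3 livers stood apart and are named where they bear on a value. The Hu liver at ZT 18, replicate 3, had the highest human share, 93.1%, and the lowest mouse Alb, Apoa1, Apob, Apoe and Apoc3 of the Hu livers. The Hu liver at ZT 10, replicate 1, had the lowest human ALB, APOA1 and APOC3 and the highest human APOB and APOE. The Mu liver at ZT 2, replicate 1, had the highest Apoa1, Apoe and Apoc3 and the lowest Apob of its arm. Values without them are given where a call or a direction changed.

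Mouse levels came first, since both arms have them. Per kilobase of exon, Alb was the most abundant transcript of 19615 mouse genes in Mu livers, at 26831 ± 2668 CPM per kb (SD, n = 12). Apoe stood at rank 5 with 7593 ± 1476 CPM per kb, Apoa1 at rank 6 with 6616 ± 1863, Apoc3 at rank 28 with 1777 ± 628, and Apob at rank 119 with 357 ± 131. The per-kb ranges of Apoe (5912 to 11121) and Apoa1 (4897 to 10668) overlapped, while those of the other neighbours in this order did not. In the mouse rows of Hu livers Alb again stood first, at 23788 ± 6263 CPM per kb (SD, n = 15), and Apob moved to rank 64, at 427 ± 111. There Apoc3, at 675 ± 241 CPM per kb and rank 40, overlapped in range with Apob, and all other neighbours in this order overlapped as well, with Alb from 5136 to 32007, Apoe from 3449 to 6235, Apoa1 from 556 to 5728 and Apoc3 up to 1045. Thus the order of the 5 transcripts per kilobase was the same in both arms.

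Alb, in CPM without length scaling, ran from 52149 to 73345 with a median of 62039 in Mu livers, and from 12029 to 74961 with a median of 58523 in Hu livers. Of the Hu livers, 3 lay under the lowest Mu liver and 2 above the highest, so that the arms overlapped. Apoa1, the core protein of high density lipoproteins, ran from 6053 to 13185 (median 7143) in Mu and from 688 to 7079 (median 5181) CPM in Hu livers. For Apoa1, 11 of 15 Hu livers lay under every Mu liver. Apoe, the remnant ligand, ran from 12639 to 23777 (median 15524) in Mu and from 7374 to 13331 (median 9720) CPM in Hu livers. All but 1 of the Hu livers lay under the lowest Mu liver for Apoe. Apoc3, the brake on triglyceride clearance, ran from 1132 to 3536 (median 1665) in Mu and from 98.6 to 1059 (median 688) CPM in Hu livers, with no overlap. How many of all mouse genes separate the arms in this way was not counted. These numbers of livers therefore describe the members and are not read as particular to them. Apob, the frame of very low density lipoproteins, went the other way in plain CPM, from 2510 to 8992 (median 5227) in Mu and from 1013 to 7650 (median 6256) in Hu livers, with 13 of 15 Hu livers above the Mu median. In that scaling the median of all mouse genes tested was itself 0.74 log2 higher in Hu livers. Apob, at 0.28 (edgeR, adjusted p = 0.217), rose less than this median and was not called.

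**Figure D1:**
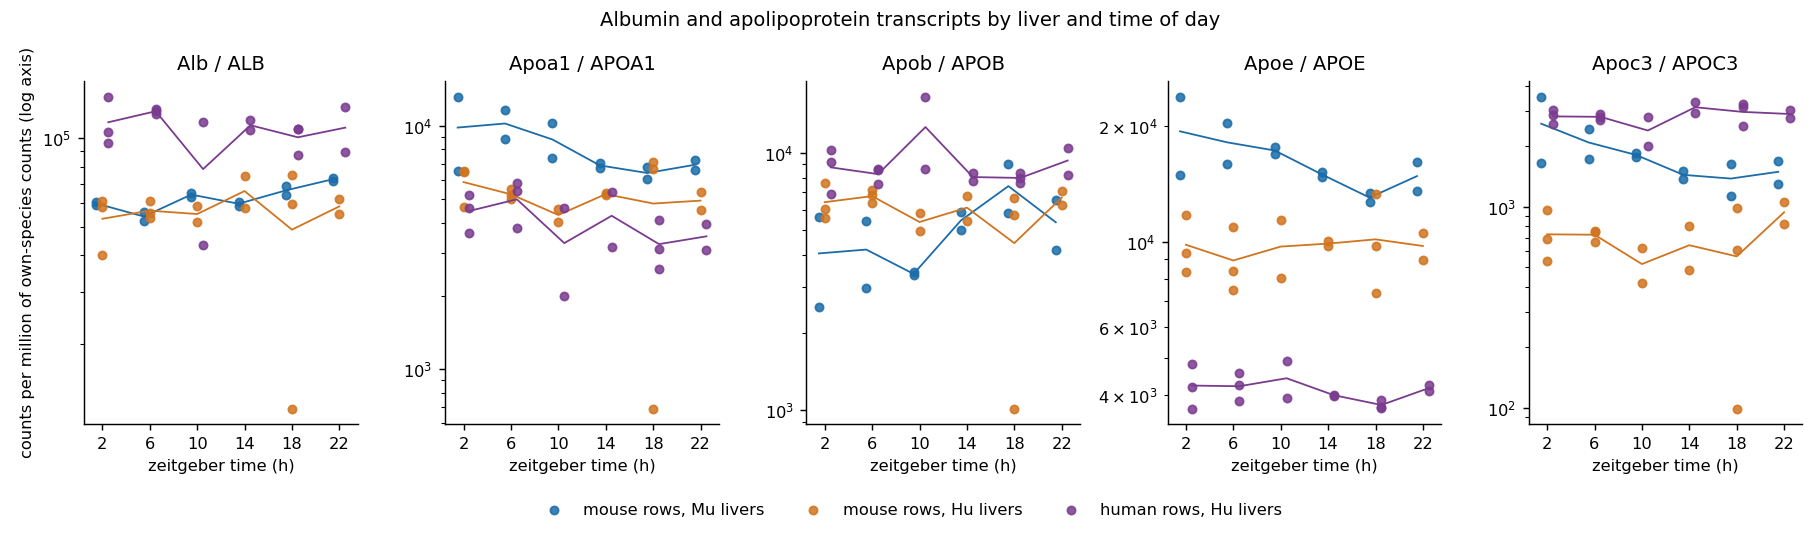
Each point is 1 liver, lines join the means per time point, and the vertical log axis gives CPM of the liver's own-species counts. The Mu (blue) and Hu (orange) mouse rows do not overlap for Apoc3, and the human rows (purple) lie above all mouse rows of Hu livers for Apoc3 and below all mouse rows for Apoe.

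With TMM scaling (the trimmed mean of M values, which sets the typical gene's ratio between libraries near 1) over mouse rows, 4 of the 5 mouse members were lower in Hu livers at an adjusted p under 0.05, against 37.0% of the 14977 mouse genes tested. Another 42.5% of all genes, and none of the members, were higher. The log2 difference, Hu minus Mu, was -2.01 ± 0.26 (SE) for Apoc3 (adjusted p = 3.21e-07), a level 0.249 times that of Mu livers. Apoe stood at -1.37 ± 0.19 (adjusted p = 6.21e-07), Apoa1 at -1.29 ± 0.26 (adjusted p = 7.88e-05) and Alb at -0.78 ± 0.29 (adjusted p = 0.0165). Apob, at -0.34 ± 0.24, did not pass (adjusted p = 0.204). The 4 calls held without each liver in turn and without all 3 livers that stood apart.

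Scaling decided where 0 lay. The median over all mouse genes tested was 0.066 with TMM, 0.74 with the mouse library size alone, -0.70 with the library size over both species, and 1.34 with library size and TMM over both species. With the mouse library size alone, Alb stood at -0.17 (adjusted p = 0.462) and Apob at 0.28 (adjusted p = 0.217), while Apoa1, Apoe and Apoc3 were still lower, at -0.66, -0.73 and -1.40. That scaling called 12.9% of all mouse genes lower and 72.6% higher. With the library size over both species and no TMM, all 5 members were lower, against 60.9% of genes, and 16.9% of genes were higher. With library size and TMM over both species none of the 5 was lower and 1, Apob, was higher, at 1.07 (adjusted p = 0.00868), with Alb at 0.65, Apoa1 at 0.12, Apoe at 0.025 and Apoc3 at -0.57, beside 2.91% of genes lower and 84.4% higher. Relative to the median of all mouse genes, the members kept their order under each of 10 fits: Apoc3 between -2.17 and -1.80, Apoe between -1.54 and -1.31, Apoa1 between -1.46 and -1.15, Alb between -0.95 and -0.69 and Apob between -0.51 and -0.27. All 5 members were thus below the median gene in each of these fits.

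**Figure D2:**
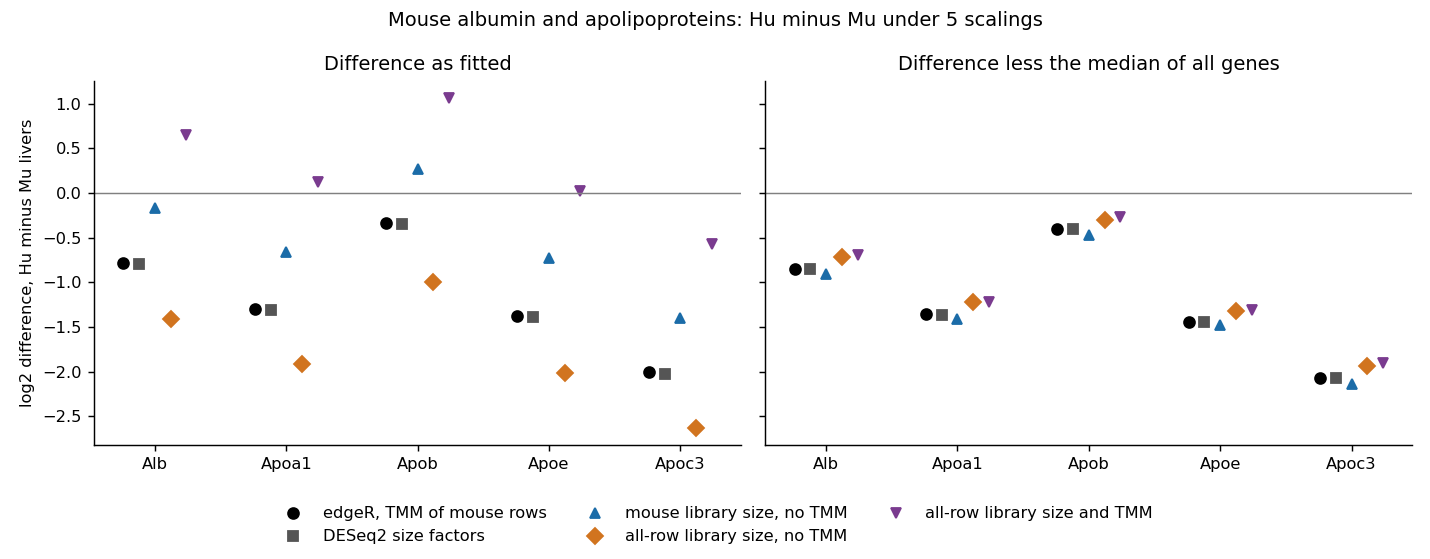
Log2 difference of the 5 mouse members between Hu and Mu livers, with 1 symbol per scaling; the left panel gives the fitted difference and the right panel the same value less the median of all mouse genes. The fitted values of Apob run from -0.99 to 1.07, while after the median is taken off all 5 members lie below 0 under each scaling.

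The neighbours of these genes in lipoprotein metabolism were described by lists, whose counts are read against the same 37.0% lower and 42.5% higher. Of 9 other apolipoproteins, 7 were lower in Hu livers and 0 higher, with a median of -1.76. Apoc4 stood lowest at -2.35 ± 0.25 (adjusted p = 1.65e-08), and Apoa2, the second protein of high density lipoproteins, at -2.28 ± 0.30 (adjusted p = 3.79e-07). Of 9 genes of lipoprotein assembly and remodelling, 5 were lower and 1 higher, with a median of -1.12. Lipc, hepatic lipase, was at -3.19 ± 0.28 and Sar1b, which helps export lipoproteins from the endoplasmic reticulum, at -1.61 ± 0.15, while Abca1, the cholesterol exporter that lipidates APOA1, was higher at 0.39 ± 0.15 (adjusted p = 0.0193).

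Of 6 genes of lipoprotein uptake, 4 were lower and 2 higher. Lsr, a lipoprotein receptor of hepatocytes, stood at -0.63 ± 0.17. Vldlr, which binds triglyceride-rich lipoproteins, was higher at 1.66 ± 0.28, and Sort1, a sorting receptor, at 0.95 ± 0.10. Of 15 other secreted plasma proteins, 12 were lower and 1 higher, with a median of -0.88. Plg, plasminogen, stood at -1.84 ± 0.25 and Fgg, a fibrinogen chain, at -1.81 ± 0.28. Afp, the albumin relative of fetal liver, was the higher one, at 4.08 ± 0.77 (adjusted p = 3.74e-05). All 11 hepatocyte transcription factors were lower, led by Cebpa at -1.62 ± 0.14 and Foxa3 at -1.53 ± 0.20.

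With the mouse library size alone, where 12.9% of all genes were lower and 72.6% higher, these lists counted 6 lower and 1 higher for the other apolipoproteins, 5 lower and 2 higher for assembly, 1 lower and 2 higher for uptake, 7 lower and 1 higher for secreted proteins and 7 lower and 1 higher for transcription factors. The median of the uptake list was -0.54 with TMM and 0.14 under that scaling, so its direction turned.

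The time of day was examined next with a cosine of 24 h per arm. None of the 5 mouse members was called rhythmic by edgeR in Mu livers, where 17.3% of mouse genes were. In mouse rows of Hu livers none was called, against 0.167% of genes, and none had a different rhythm between arms, against 1.28%. None of the 5 human members was called, against 1.08% of 12832 human rows. Unadjusted p-values under 0.05 also numbered 0 in each of these 4 tests, and DESeq2 called 0 in each.

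Apob had an amplitude of 0.50 ± 0.22 log2 from mean to peak in Mu livers (jackknife SE, fitted peak at ZT 18.5, adjusted p = 0.329). Its mean level was 3383 CPM at ZT 10 and 7409 CPM at ZT 18. Without the Hu liver at ZT 18, replicate 3, which enters only the shared estimate of spread, the same amplitude passed the threshold (adjusted p = 0.0415). Without the 3 livers that stood apart it was 0.47 (adjusted p = 0.0448). Apoc3, Apoa1 and Apoe had amplitudes of 0.41 ± 0.22, 0.35 ± 0.15 and 0.24 ± 0.12 in Mu livers, with fitted peaks at ZT 4.09, 5.22 and 4.93 and adjusted p between 0.522 and 0.677. Without the Mu liver at ZT 2, replicate 1, the amplitude of Apoc3 was 0.24, with its peak at ZT 5.95. Alb had an amplitude of 0.17 ± 0.06 (adjusted p = 0.921), beside a median of 0.27 over all mouse genes tested. Its Mu means ran from 54129 CPM at ZT 6 to 72518 CPM at ZT 22. The estimate of spread is shared with Hu livers, where the coefficient of variation of Alb was 26.3%, against 9.95% in Mu livers. Without the Hu liver at ZT 18, replicate 3, the adjusted p of Alb in Mu livers was 0.678. The lack of a call therefore does not show that Alb was flat in Mu livers.

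In mouse rows of Hu livers the amplitudes ran from 0.019 for Alb to 0.34 for Apoc3, with adjusted p of 0.707 or more. The value of Alb ran from 0.011 to 0.19 as single livers were left out, the highest without the Hu liver at ZT 18, replicate 3, and that of Apoe from 0.050 to 0.19. The human members had amplitudes of 0.27 ± 0.15 for APOA1, 0.15 ± 0.11 for ALB, 0.12 ± 0.08 for APOB, 0.10 ± 0.05 for APOE and 0.071 ± 0.062 for APOC3, with adjusted p between 0.509 and 0.883. The median over all human rows tested was 0.15. Among the list genes named here, rhythms in Mu livers were called for Abca1 (amplitude 0.65, adjusted p = 0.0123), Sort1 (0.48, adjusted p = 0.0136), Nr1h4, the bile acid receptor (0.44, adjusted p = 0.0369) and Foxa1 (0.55, adjusted p = 0.0399), and for no gene of the other apolipoproteins or secreted proteins. No gene of these 5 lists had a different rhythm between arms.

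Over the 12 Mu livers, the genes most like each member were found by Pearson's r of log2 CPM among 14972 other genes, as a description. Those most like Apob were Usp34, Macf1 and Med13 (r = 0.98 each), with exon lengths of 18.5, 31.4 and 10.8 kb. Those most like Apoc3 were Uqcrh, Minos1 and Ndufa13 (r = 0.99 each), of 1.24, 2.77 and 1.25 kb, and those most like Apoa1 were Mfsd3, Yif1b and Vkorc1 (r from 0.98 to 0.99), of 2.46, 1.36 and 0.84 kb. Apoe was most like Park7, Mrps16 and Cdc37 (r of 0.99 or more), of 2.48, 2.88 and 8.19 kb. Alb was most like Dnajb5 (r = 0.92), Dvl2 (0.88) and Kdm4b (0.85). The median exon length of 12761 mouse genes with 10 or more counts in every liver was 4.49 kb, that of Apob itself 13.9 kb, and those of Alb, Apoe, Apoa1 and Apoc3 2.34, 2.14, 1.24 and 1.01 kb.

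These lengths led to a measure chosen after the values were seen, the median log2 deviation from the arm mean of the longest of 5 equal groups of genes (7.62 kb or more) less that of the shortest (up to 2.53 kb). It was -0.85 in the Mu liver at ZT 2, replicate 1, the lowest of 12, and -0.52 at ZT 6, replicate 2, the next lowest. It was 0.46 at ZT 18, replicate 2, the highest. Apob was lowest in the first 2 of these livers (2510 and 2972 CPM) and highest in the third (8992 CPM). Apoe, Apoa1 and Apoc3 were highest in the first 2. Alb, at 2.34 kb also in the shortest group, did not follow them. It stood at 58999, 56110 and 68759 CPM in these 3 livers, within a Mu range of 52149 to 73345 CPM. No correlation of the length measure with the members was computed over the 12 Mu livers. Its part in their spread and amplitudes was not tested.

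Human and mouse transcripts of the same protein were compared within each Hu liver. If every protein followed the species' total counts, its human share would equal the human share of all counts. ALB counts were 29.9% to 99.0% human, with a median of 67.6%, and exceeded the share of all counts in 14 of 15 livers. APOB counts were 18.9% to 99.0% human (median 62.8%) and exceeded it in 15 of 15. APOC3 counts were 37.2% to 99.8% human (median 84.6%), also above in 15 of 15, while APOE counts were 7.19% to 87.6% human (median 43.6%) and below it in all 15. APOA1 counts were 13.1% to 98.4% human (median 46.2%) and above it in 5 of 15.

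In the liver with the lowest human share of all counts, 15.9% (ZT 2, replicate 1), the share was 37.2% for APOC3 (95% Wilson interval 36.9 to 37.5%), 29.9% for ALB, 18.9% for APOB, 13.1% for APOA1 and 7.19% for APOE (interval 7.14 to 7.24%). These intervals cover counting error only. The same 5 proteins in 1 liver thus spanned from 7.19% to 37.2% human.

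The log2 ratio of human to mouse counts, less that of all counts, averaged 2.20 ± 0.84 for APOC3 (SD, n = 15), a human-to-mouse ratio 4.58 times that of all counts. It averaged 0.99 ± 0.68 for ALB, 0.66 ± 0.72 for APOB, -0.27 ± 0.83 for APOA1 and -1.22 ± 0.26 for APOE, the last a ratio 0.43 times that of all counts. In sign-flip permutation tests of 100000 draws over 15 livers (2-sided, 5 proteins, unadjusted), p was 5e-05 for APOC3, APOB and APOE and 0.0001 for ALB. For APOC3, APOB and APOE all 15 livers had the same sign, so the exact p is the smallest that 15 signs allow. The 5e-05 is an estimate from random draws and lies slightly under that exact value. APOA1 did not pass (permutation p = 0.228). Without the Hu liver at ZT 18, replicate 3, where it stood at 2.18, APOA1 averaged -0.45 (permutation p = 0.00285), and without the 3 livers that stood apart it also passed, at -0.39. Without those livers APOB averaged 0.41, still called. The offset of APOE ran from -1.84 to -0.82 over the livers. Without the 2 Hu livers that stood apart the SDs over 13 livers were 0.13 for APOB, 0.26 for ALB and APOE, 0.30 for APOC3 and 0.45 for APOA1.

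**Figure D3:**
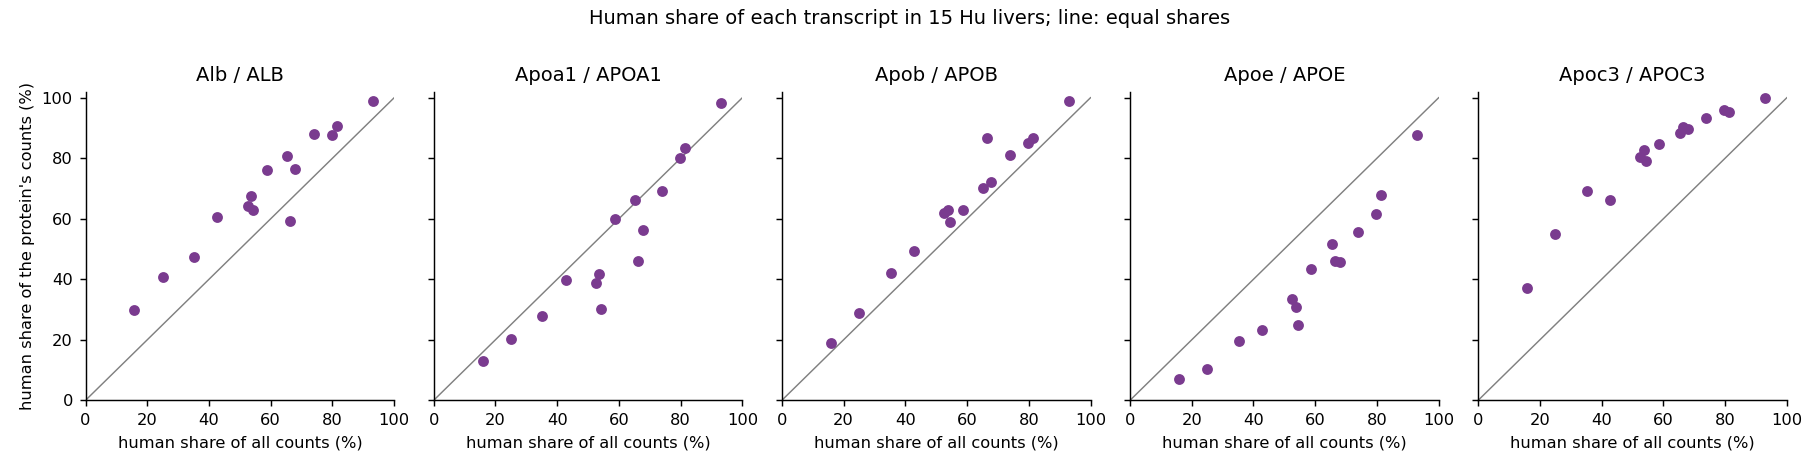
Each point is 1 of 15 Hu livers, with the human share of all its counts on the horizontal axis and the human share of the protein's counts on the vertical axis, both in %. Points above the line of equal shares are 15 of 15 for Apoc3 and Apob, 14 for Alb, 5 for Apoa1 and 0 for Apoe.

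Human and mouse rows rest on different gene models, so a difference in length or in how reads matching both species were counted enters these offsets and was not tested. As background, human ALB was counted 162 to 1653 times in Mu livers, or 0.00209% to 0.029% of mouse Alb. Human APOA1 was counted 11 to 59 times there, APOB 11 to 142, APOE 9 to 77 and APOC3 5 to 64 times. With that background taken off, the mean offset was 0.99 for ALB, -0.27 for APOA1, 0.66 for APOB, -1.22 for APOE and 2.20 for APOC3, as before.

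Within human rows, ALB ran from 43294 to 138174 CPM of human counts (median 106962), and the lowest was the liver at ZT 10, replicate 1. The next lowest was 87803. APOB ran from 6885 to 16482 CPM (median 8321), with its highest value in that same liver. APOA1 ran from 1992 to 5804 CPM (median 3956), APOC3 from 2000 to 3322 (median 2851) and APOE from 3685 to 4918 (median 4013). The coefficient of variation over the 15 livers was 9.32% for APOE and 11.4% for APOC3, and 21.1% for ALB, 25.3% for APOB and 27.9% for APOA1. Without the liver at ZT 10, replicate 1, it was 11.5% for APOB, 13.1% for ALB, 24.2% for APOA1, 8.06% for APOE and 8.03% for APOC3.

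Human and mouse rows were then added up, to ask what part of both species' counts each transcript took in a Hu liver, in CPM. This is a share of counts and not an amount per liver. The limits on gene models and on reads matching both species hold for these sums as well, and their part was not tested. Summed albumin ran from 48484 to 101994 (median 87821) in Hu and from 52153 to 73342 (median 62039) in Mu livers. It was higher in Hu by a mean log2 difference of 0.42 ± 0.08 (SE), or 1.34-fold (permutation test within time points, 100000 draws, 2-sided, p = 0.00048), with 11 of 15 Hu livers above every Mu liver and 1, at ZT 10, replicate 1, below. Summed APOB was higher by 0.74 ± 0.17, or 1.67-fold (permutation p = 4e-05), from 5770 to 12597 in Hu and from 2511 to 8992 in Mu livers, and 15 of 15 Hu livers lay above the Mu median.

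Summed APOE was lower in Hu by -1.31 ± 0.12, at 0.402 times the Mu level (permutation p = 1e-05, the smallest that 100000 draws can give), with all 15 Hu livers, from 4123 to 10651, below the lowest Mu liver, at 12639. Summed APOA1 was lower by -0.81 ± 0.14, at 0.571 times (permutation p = 1e-05), with 14 of 15 Hu livers below every Mu liver. Summed APOC3 did not separate the arms, at 0.15 ± 0.16 (permutation p = 0.39), from 1272 to 3036 in Hu and from 1132 to 3536 in Mu livers, although its mouse rows alone showed the largest difference of the 5. The p-values are unadjusted over 5 proteins. No other pairs of human and mouse rows were summed. How often such a separation of the arms occurs among all genes is therefore not known, for albumin and APOB as well.

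**Figure D4:**
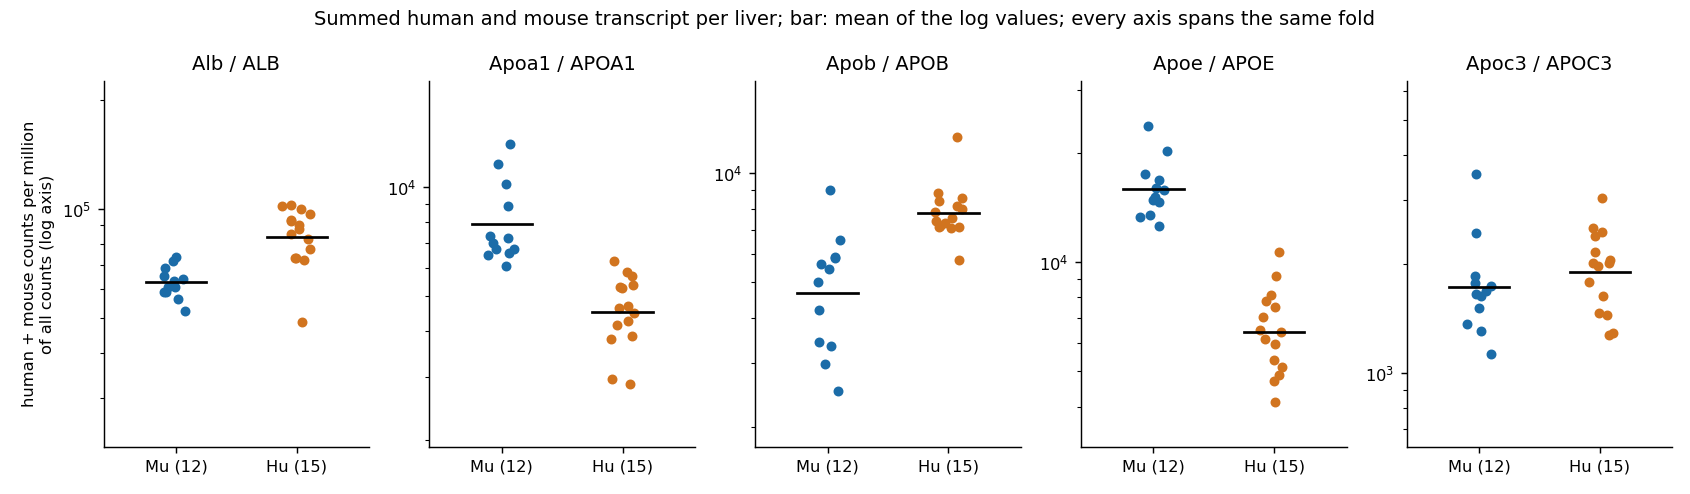
Human plus mouse counts of each protein, in CPM of all counts, 1 point per liver, with the mean of the log values as a bar and log axes that span the same fold in every panel. All 15 Hu livers lie below all 12 Mu livers for Apoe, and 11 of 15 lie above all Mu livers for Alb.

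The levels within a species were last set against the human share of a liver, over the 15 Hu livers and with the cosine terms kept. Each of the 5 mouse slopes was below 0, and 1 of 5 was called lower with a higher human share, against 18.8% of 13879 mouse genes lower and 22.9% higher. Mouse Apoe stood at -0.21 ± 0.06 log2 per 10 percentage points (SE, adjusted p = 0.0175), or 0.863 times per 10 points. Apoc3 stood at -0.31 ± 0.12 (adjusted p = 0.0503), Alb at -0.29 ± 0.14 (adjusted p = 0.111), Apoa1 at -0.28 ± 0.12 (adjusted p = 0.0796) and Apob at -0.22 ± 0.12 (adjusted p = 0.146). Without TMM the call of Apoe was lost, at -0.12 (adjusted p = 0.0767). Without the Hu liver at ZT 18, replicate 3, the slopes were -0.17 for Apoe, still called, and -0.17 for Alb, -0.14 for Apoa1, -0.09 for Apob and -0.17 for Apoc3. Apoc3 was called as well without the Hu liver at ZT 6, replicate 3, or that at ZT 10, replicate 1, at -0.32 in both. Without the livers that stood apart 3 were called, Apoe at -0.17, Apoa1 at -0.14 and Apoc3 at -0.18, and the share of all genes called was not counted. Over all 15 Hu livers the slopes of mouse hepatocyte markers had a median of -0.37, with 4 of 8 called lower. Those of stellate markers had a median of 0.46, with 6 of 6 called higher.

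The human members showed slopes between -0.05 and 0.0015 per 10 points, with SEs from 0.03 to 0.07 and adjusted p of 0.703 or more. Of all human rows 0% were called, with 1665 of 12832 at an unadjusted p under 0.05 and 0 of the 5 members among them. No other tool was run on the slopes. When the library size covered both species, all 5 mouse members were called lower and all 5 human members higher with the share, as that scaling carries the species' total itself. The shares of all mouse genes and human rows called under that scaling were not counted.

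**Figure D5:**
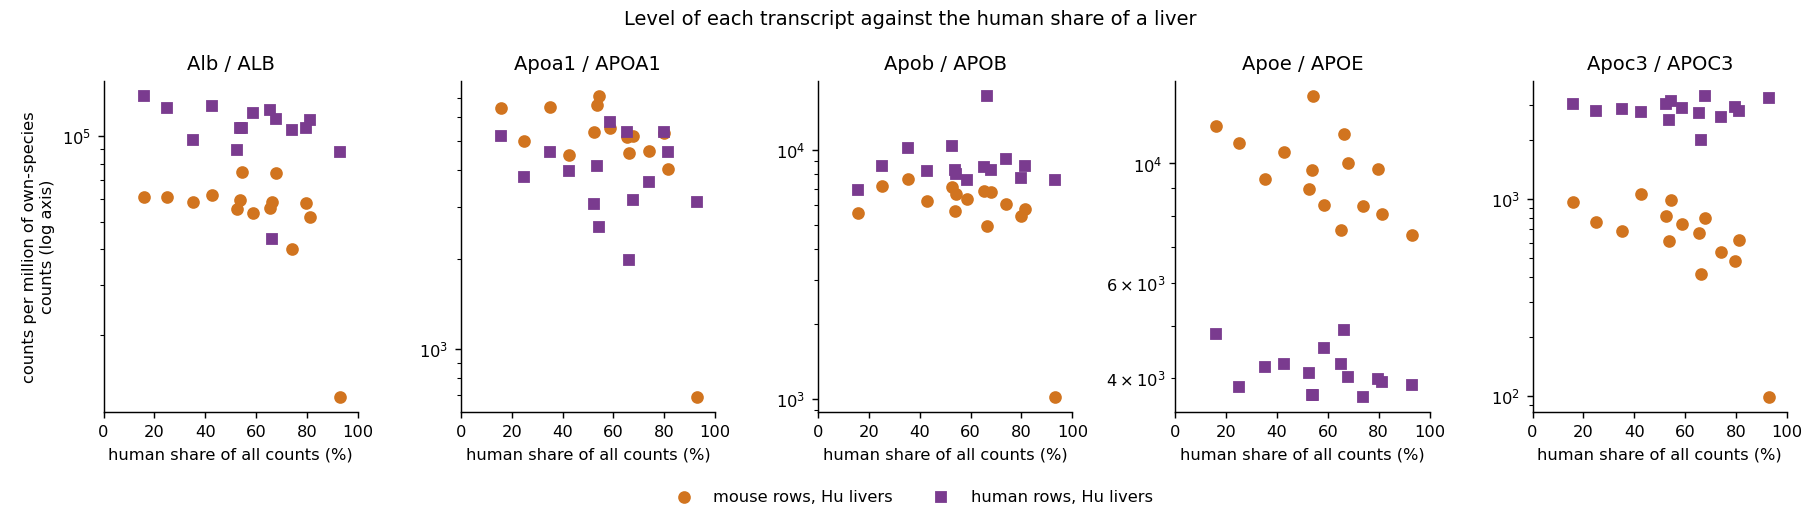
Level of each transcript, in CPM of own-species counts on a log axis, against the human share of all counts of the liver in %, for mouse (orange circles) and human (purple squares) rows of 15 Hu livers. The rightmost liver, at 93.1% human, has the lowest mouse value in each panel, at 12029 CPM for Alb and 98.6 CPM for Apoc3, while its human values lie within the range of the others.

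Outside the liver, mouse rows of the 5 genes were read in skeletal muscle (15 Hu, 12 Mu), the arcuate nucleus (10 Hu, 12 Mu) and the suprachiasmatic nucleus (10 Hu, 12 Mu), with no test. Apoe had the highest median of the 5 in each. It ran from 1775 to 2928 CPM in the Mu and from 1931 to 2283 CPM in the Hu arcuate nucleus, and from 1497 to 2411 and from 1435 to 2463 CPM in the suprachiasmatic nucleus. In muscle Apoe had a median of 104 CPM in Mu (65.6 to 271) and 239 CPM in Hu mice (157 to 911). Alb ran from 0.104 to 106 CPM in Mu and from 0.103 to 79.9 CPM in Hu muscle, with medians of 1.54 and 0.61 CPM, and its highest libraries stood far above these medians. In the arcuate nucleus Alb reached 25.8 CPM in Mu and 46.2 CPM in Hu mice. Apoa1, Apob and Apoc3 had medians of 0.96 CPM or less in each of these tissues and arms.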

How the data were processed

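RNA sequencing counts of 98 samples were used, of which 27 are livers. The authors deposited raw counts per gene, 1 column per library, as whole numbers without normalization, with human and mouse genes in separate rows of the liver table. Libraries came from a directional kit, per the labels, and STAR with GRCm38/mm10, GRCh38/hg38 and hg19 are named per the submitters' processing notes. The counting program, annotation, strand setting and treatment of reads matching both species are not given in the sources used here. All 98 columns were used, of which 2 outside the liver were placed in their group without a replicate number.

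Mouse rows (14977 genes after filterByExpr by arm, 13879 in Hu livers alone) and human rows (12832) were fitted apart with edgeR 4.0.16 in R 4.3.3, each with its own library size and TMM. The model held the arm and a cosine and sine of 24 h per arm, or, within Hu livers, the human share as a covariate. Quasi-likelihood F tests gave p-values, adjusted by Benjamini-Hochberg over all genes and called under 0.05, and these are the adjusted p-values in the text. Amplitude errors are jackknife SEs over livers. Shares and summed levels were tested by permutation in Python with numpy. DESeq2 1.42.0, other scalings, filters, time models and left-out livers were alternatives. Mouse symbols matched 19615 of 19689 rows. On simulated mouse counts of 14977 genes, 77.0% of 200 genes changed by 1 log2 unit between arms were recovered, and 77.5% of 200 given an amplitude of 1 in Mu livers. The largest member amplitude in Mu livers was 0.50, for Apob. Smaller amplitudes than 1 were not simulated, so recovery at the sizes seen in the members is not known.

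The members and lists were chosen with earlier results of these data known. Besides the members, the text names from each list up to 2 genes called in each direction with the largest difference, up to 2 rhythmic in Mu and up to 2 with a different rhythm by p-value, the 3 genes most like each member, and Fah. 1 gene that this rule names is not reported here.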

Additional observations from a re-analysis of the deposited data

How the results depend on the processing

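Of the mouse members 4 were lower under DESeq2, no low-count filter, time point as a factor, matched replicate numbers only, the replicate block and without the 3 livers that stood apart. With the mouse library size alone 3 were lower, with Alb at -0.17 no longer called. With library size over both species and no TMM, added after the data were seen, 5 were lower, and with library size and TMM over both species 0 were lower and 1 higher. Under that last scaling the directions of Alb (0.65), Apoa1 (0.12), Apob (1.07) and Apoe (0.025) turned, and with the mouse library size alone that of Apob did (0.28).

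Left-out livers gave 4 to 4 lower members, 0 to 0 higher, 0 to 1 rhythmic in Mu livers and 1 to 2 with a slope on the human share. Without the 3 livers that stood apart, chosen after seeing the data, 1 member was rhythmic in Mu livers. Mouse members with a called slope numbered 4 with the log2 ratio of human to mouse counts as covariate and 2 without the cosine terms. They numbered 5 with library size over both species with or without TMM, 3 without the livers that stood apart and 0 without TMM. The share of all mouse genes with a called slope was not counted for these fits or for left-out livers. These numbers are therefore not read as particular to the members.

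Human members with a called slope were 5 with library size over both species. The share of all human rows called under that scaling was not counted. There ALB stood at 0.23 with and 0.27 without TMM, APOA1 at 0.28 and 0.32, APOE at 0.26 and 0.29 and APOC3 at 0.27 and 0.31, against slopes near 0 otherwise. APOA1 stood at 0.0022 without TMM and APOB at -0.0040 with the log2 ratio as covariate. Left-out livers gave slopes from -0.035 to 0.042 for APOA1, -0.024 to 0.017 for APOB, -0.046 to 0.00029 for APOE and -0.026 to 0.0098 for APOC3.

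The species offset of APOA1 passed at -0.39 without the livers that stood apart, and ran from -0.45 to -0.19 over left-out livers. The other 4 offsets and the 5 summed levels kept their direction under each alternative run and each left-out liver. They also kept their call wherever a new test was run. The alternatives that took medians over livers had no test of their own, so they bear on direction only.

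Livers were not paired by replicate number in the main fit. Over 12 same-numbered pairs the deviations correlated at 0.115 on average, from 0.013 to 0.31, with 7 of 12 over 0.1. All 12 values were above 0. At ZT 10, 14 and 22 each arm had 2 livers, so both pairs of a time point give the same value and are not independent. These values do not settle whether the numbers pair the livers. With the replicate number as a block, 4 members were lower, with Alb at -0.70, Apoa1 at -1.20, Apob at -0.25, Apoe at -1.31 and Apoc3 at -1.89, and 0 mouse or human members were rhythmic. Depth does not limit the members, whose lowest count in any liver's own-species rows was 759.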

Other observations

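The 5 proteins together took 9.40% ± 0.59 of mouse counts in Mu livers (SD, n = 12), with a range of 8.41% to 10.3%. In Hu livers their mouse rows took 7.72% ± 1.85 of mouse counts (SD, n = 15), with a range of 2.12% to 10.3%, and their human rows 12.7% ± 2.15 of human counts, with a range of 6.87% to 15.8%. The lowest mouse value was the liver at ZT 18, replicate 3, and the lowest human value the liver at ZT 10, replicate 1.

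In Hu livers the length measure ran from -0.45 at ZT 2, replicate 1, to 0.45 at ZT 18, replicate 3. It was 0.22 at ZT 10, replicate 1, the second highest, and these are values with no test.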
